A study of Mus with 12 samples.

Results

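The 42 genes described here encode the machinery that copies nuclear DNA, from the proteins that license origins to those that supply nucleotides and reassemble chromatin behind the fork. They were taken by name from both gene tables of the series, as the rows that carry the gene's name and an Ensembl transcript. All 42 had 1 such row among the 87235 rows of E0.5 and E4.5 and among the 40787 rows of E15.5 and E18.5, and all 42 passed the filter on low values (a mean of at least 0.1 FPKM) in both tables. In the first table, each row overlaps the RefSeq locus of its name on GRCm38. The study compared the uterus within a pair of days around implantation and a pair before labor, chosen for their levels of progesterone.

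The samples are whole uteri of pregnant ICR mice, an outbred strain, with 3 mice on each day and 1 mouse in each library. By the methods of the study all mice were mated at the same age, so those of a later day were also older, and day and age cannot be told apart. E0.5 follows mating directly, while E4.5 is the time of embryo attachment, E15.5 late gestation and E18.5 the eve of birth. The labels name no modified allele and no agent for any group. A whole uterus mixes epithelium, stroma, muscle, vessels and blood, and from E4.5 on it can hold embryonic tissue, so a lower value can come from fewer cells of a type or from less RNA per cell, which cannot be told apart here. FPKM scales the reads of a row to its length and to the library, and log2(FC) is the log2 fold change of E0.5 over E4.5 or of E18.5 over E15.5, given with its standard error (SE). A gene was called at an adjusted p under 0.05 over all tested rows. The criterion of the study, a change of at least 2-fold with an unadjusted p under 0.05, is given beside it.

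Replication starts at origins, where the origin recognition complex with Cdc6 and Cdt1 loads the Mcm2 to Mcm7 helicase as an inactive ring. Kinases then recruit Cdc45 and the GINS complex, the ring begins to unwind DNA, and polymerases copy both strands while the Pcna clamp holds them in place. Transcripts of many of these genes are driven by E2F factors as cells pass from G1 into S phase, and in the mouse uterus epithelial cells divide under estrogen after mating, whereas stromal cells divide as they turn into decidua around implantation.

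Total counts lay between 58020989 and 70906881 in the libraries of E0.5 and E4.5, and the depth on the later days is unknown because their table holds FPKM only. E4.5 replicate 3 stood apart. The summed FPKM of 7 ovary markers was 841 there and 4.26 to 6.44 in the other 5 libraries of the table, 5 oocyte markers summed to 41.9 against at most 0.322, and 5 markers of the uterus (Hoxa10, Hoxa11, Pgr, Esr1 and Myh11) summed to 29.9 against 123 to 173. Counts of calls and some estimates are therefore also given without it. In the other table, E15.5 replicate 1 had 1360 FPKM over 6 decidua markers, nearly all from Prl8a2, against 85.4 and 100 in the other E15.5 libraries. The summed FPKM of 5 yolk sac markers varied many-fold between single libraries. It was 11.3, 122 and 858 at E15.5 and 217, 612 and 116 at E18.5. Markers of embryonic red cells were listed at 0 in all E0.5 and E4.5 libraries, and 6 trophoblast markers summed to at most 0.532 FPKM there.

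Between E0.5 and E4.5, all 42 DNA replication genes had a lower estimate at E0.5, from a log2(FC) of -0.17 for Gins3 to -4.56 for Rrm2, with a median of -1.34. Over all 59732 tested rows the median was -0.01, and 50.4% of rows had an estimate below 0 (58.5% of those with an Ensembl transcript). At an adjusted p under 0.05 in edgeR's test, 13 of the 42 were called lower at E0.5 and none higher. Of all tested rows, 1.22% were called and 0.459% were called lower at E0.5. By the criterion of the study 29 of the 42 were lower at E0.5 and 0 were higher, where 12.2% of all rows met it and 5.82% met it on the lower side. The E0.5 libraries lay below all E4.5 libraries for 38 of the 42, which 12.5% of all rows did. Among tested rows with an Ensembl transcript, as all of these genes have, 0.814% were called lower at E0.5 and 17.0% had all E0.5 libraries below all E4.5 libraries.

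The count of calls depended on single libraries. Without E4.5 replicate 3 it was 23, which included all 13, and 6.08% of all rows were then called. It was 0 without any 1 of the 3 E0.5 libraries or without E4.5 replicate 1, and it was 1 (Mcm5) without E4.5 replicate 2, while 0% to 0.253% of all rows were called in these 5 fits. The test mattered too. With DESeq2, 31 of the 42 were called (9.74% of all rows), which included all 13. In limma on log2(FPKM + 0.1), 10 of the 42 were called (1.51% of all rows), of which 8 were among the 13, and Cdc6, Cdc45, Pola1, Pole and Chaf1a had adjusted p-values of 0.14, 0.0713, 0.0634, 0.0583 and 0.101. The direction moved little, since 40 to 42 of the 42 estimates were below 0 in each of the 6 fits with 1 library left out and the median lay between -1.44 and -1.28. Exceptions were Gins3 (0.06) without E0.5 replicate 3, and Gins3 (0.02) and Chaf1b (0.07) without E4.5 replicate 1. Single estimates moved both ways without E4.5 replicate 3. They were smaller in size for Gmnn (-1.05 from -1.37), Uhrf1 (-2.48 from -2.69), Mcm8 (-1.28 from -1.43) and Rfc3 (-0.45 from -0.73). Larger in size were those of Rrm2 (-5.02 from -4.56), Mcm5 (-2.70 from -2.62) and Ccne1 (-3.29 from -2.89).

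**Figure D1:**
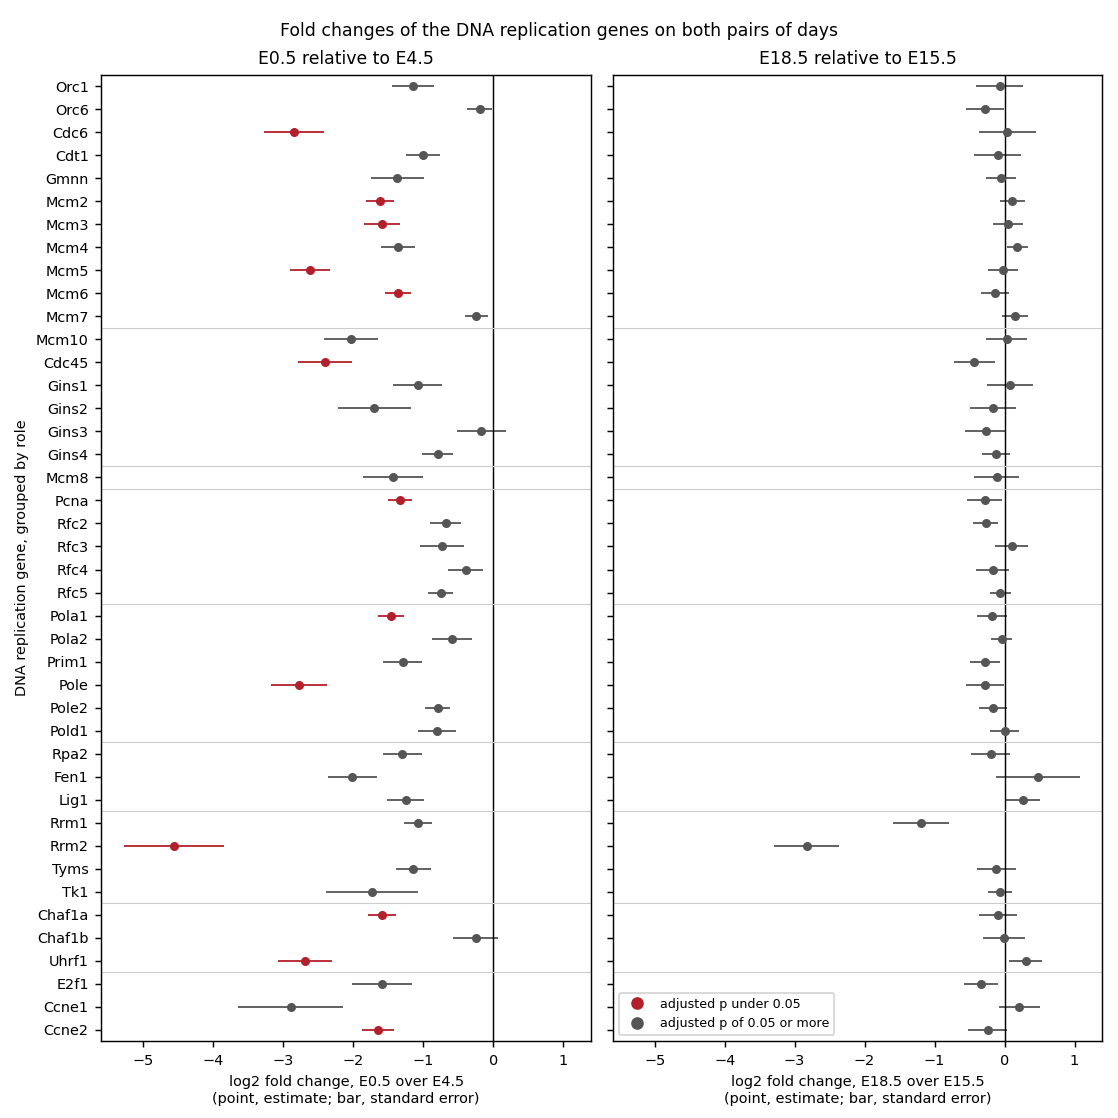
Log2 fold changes (x axis) of the 42 genes in role groups (y axis, grey lines between groups) for E0.5 over E4.5 from edgeR and for E18.5 over E15.5 from limma, with points for estimates, bars for standard errors and red for an adjusted p under 0.05. On the left all 42 points lie below 0 and 13 are red, and on the right no point is red and Rrm2 (-2.83) and Rrm1 (-1.19) lie apart from the other 40, which range from -0.43 to 0.48.

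Of the 11 licensing genes, 5 were called lower at E0.5 (Mcm5, Mcm2, Mcm6, Cdc6 and Mcm3) and 8 met the criterion of the study. Mcm5 (chromosome 8, 75109569 to 75128439, plus strand), a subunit at the gate of the helicase ring, was at 0.928, 0.937 and 1.02 FPKM at E0.5 and at 7.95, 4.35 and 5.43 FPKM at E4.5. Its values at E0.5 were nearly equal and lay far below the lowest E4.5 value. The log2(FC) was -2.62 ± 0.29 (SE, adjusted p = 0.0217, edgeR), the smallest adjusted p of the 42, and -2.70 without E4.5 replicate 3. Mcm2 was at 1.48, 1.39 and 1.21 FPKM at E0.5 and at 4.83, 3.74 and 4.01 FPKM at E4.5, a log2(FC) of -1.62 ± 0.20 (SE, adjusted p = 0.0254). The groups did not overlap. The row of Mcm2 (chromosome 6, 88733879 to 88898780, minus strand) is 164902 bases long, 10.8 times the length of the RefSeq gene, so it can hold reads from outside the gene.

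Mcm6, another subunit of the ring, was at 3.57, 3.78 and 3.89 FPKM at E0.5 and at 10.2, 7.78 and 11.1 FPKM at E4.5. Mcm3 was at 1.80, 2.41 and 1.57 FPKM at E0.5 and at 6.43, 4.68 and 6.44 FPKM at E4.5. For both genes every E0.5 library was below every E4.5 library, and the log2(FC) values were -1.36 (standard error 0.19, adjusted p = 0.0346, edgeR) and -1.59 (standard error 0.26, adjusted p = 0.0464). Mcm4 had a log2(FC) of -1.36 with an adjusted p of 0.0557, and of -1.47 with an adjusted p of 0.0172 without E4.5 replicate 3. Mcm7 was the subunit with the smallest estimate. It was at 8.05, 6.99 and 7.02 FPKM at E0.5 and at 9.19, 9.01 and 7.95 FPKM at E4.5, where replicate 3 lay below E0.5 replicate 1. The log2(FC) of Mcm7 was -0.24 (standard error 0.16, adjusted p = 0.483), and its row also holds the microRNA genes Mir25 and Mir93.

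Of the 6 subunits, 3 (Mcm2, Mcm5 and Mcm7) took a share of the summed FPKM of Mcm2 to Mcm7 that did not overlap between these days, and 3 (Mcm3, Mcm4 and Mcm6) took a share that did. Mcm7 made up 44.0%, 39.7% and 39.97% at E0.5 and 19.8%, 25.6% and 19.7% at E4.5. Mcm5 made up 5.07%, 5.32% and 5.78% at E0.5 and 17.1%, 12.4% and 13.4% at E4.5, and Mcm2 6.9% to 8.1% at E0.5 and 9.91% to 10.6% at E4.5. The two-sided exact permutation p was 0.1 for each of these 3, the smallest that 3 mice against 3 can give. Mcm6 made up 19.5%, 21.5% and 22.2% at E0.5 and 22.0%, 22.1% and 27.4% at E4.5 (exact permutation p = 0.3), and the p of Mcm3 and Mcm4 was 0.2 and 0.3 in the same exact test. The summed FPKM itself was 18.3, 17.6 and 17.6 at E0.5 and 46.4, 35.2 and 40.4 at E4.5 (exact permutation p = 0.1).

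**Figure D2:**
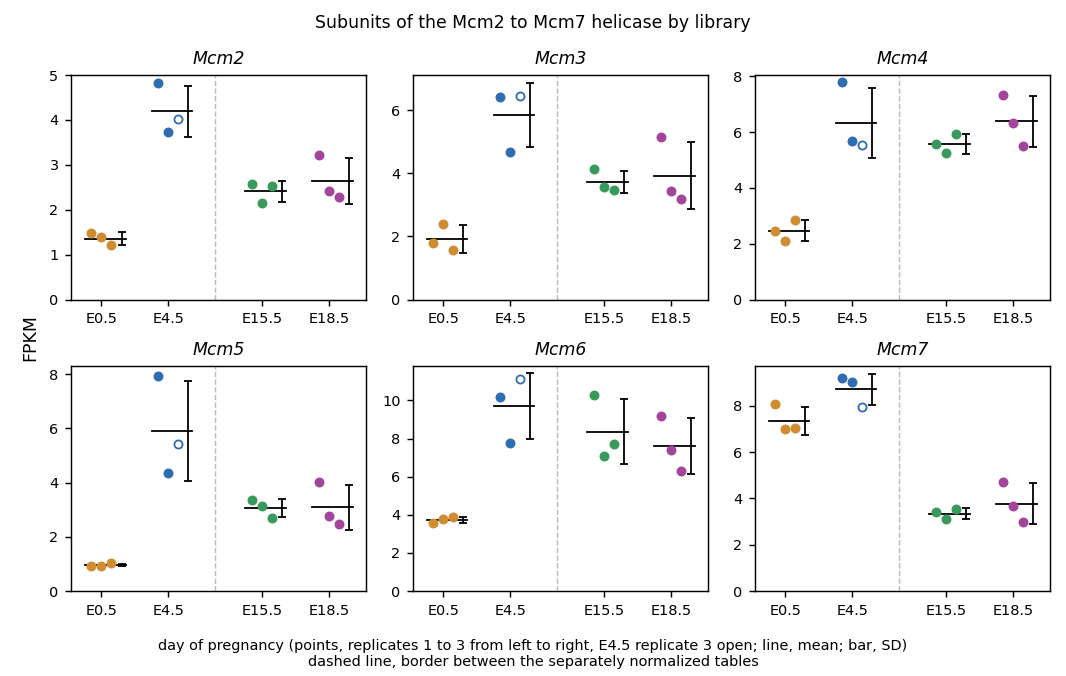
FPKM (y axis, from 0) of the 6 helicase subunits in every library, by day of pregnancy (x axis), with the mean and SD of 3 mice and E4.5 replicate 3 drawn open. Mcm2 to Mcm6 lie lower at E0.5 than at E4.5 without overlap, Mcm7 overlaps, and the E15.5 and E18.5 libraries overlap for all 6.

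Cdc6 (chromosome 11, 98907801 to 98923940, plus strand), the ATPase that loads the ring, had the lowest level of the 42 at E0.5. It was at 0.127, 0.0936 and 0.0951 FPKM at E0.5 and at 1.10, 0.461 and 0.744 FPKM at E4.5, and the groups did not overlap. The log2(FC) was -2.85 ± 0.43 (SE, adjusted p = 0.0401, edgeR), on 37 to 488 counts in a library. Orc6, a subunit of the origin recognition complex, was at 2.55, 2.64 and 2.57 FPKM at E0.5 and at 2.73, 3.03 and 3.17 FPKM at E4.5. Its groups did not overlap but lay close together, with a log2(FC) of -0.19 ± 0.18 (SE, adjusted p = 0.641). Orc1, the ATPase subunit of that complex, had a log2(FC) of -1.15 (adjusted p = 0.121), and the level of Orc6 per level of Orc1 was 3.60, 2.86 and 3.62 at E0.5 and 1.28, 1.68 and 2.47 at E4.5 (exact permutation p = 0.1). Cdt1, the partner of Cdc6 in loading, and Gmnn, its inhibitor, had log2(FC) values of -1.0 and -1.37, and Gmnn per Cdt1 overlapped between the days (0.185 to 0.365 at E0.5 and 0.256 to 0.575 at E4.5).

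Among the 6 genes of firing and helicase activation, 1 was called lower at E0.5 and 4 met the criterion of the study. Cdc45, the helicase cofactor that this step adds to the ring, was at 0.344, 0.439 and 0.270 FPKM at E0.5 and at 2.67, 1.52 and 1.40 FPKM at E4.5. All E0.5 values lay below all E4.5 values, with a log2(FC) of -2.4 ± 0.39 (SE, adjusted p = 0.0471, edgeR). Mcm10, which also acts in the activation of the helicase, had a log2(FC) of -2.03 (adjusted p = 0.0644). The 4 subunits of GINS differed among themselves, from -1.70 for Gins2 and -1.08 for Gins1 to -0.79 for Gins4 and -0.17 for Gins3. Gins4, the most abundant of them, was at 2.4, 2.72 and 3.10 FPKM at E0.5 and at 4.30, 4.55 and 5.57 FPKM at E4.5, and its groups did not overlap. Mcm8, a helicase of homologous recombination related to the ring, was at 0.755, 0.343 and 0.339 FPKM at E0.5 and at 1.42, 0.853 and 1.63 FPKM at E4.5. The log2(FC) of Mcm8 was -1.43 (standard error 0.43, adjusted p = 0.167).

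Pcna (chromosome 2, 132248907 to 132252967, minus strand), the sliding clamp, was the gene of the clamp group called lower at E0.5. It was at 7.42, 6.17 and 7.35 FPKM at E0.5 and at 18.52, 15.44 and 19.12 FPKM at E4.5, with no overlap and little spread within either day. The log2(FC) was -1.33 ± 0.17 (SE, adjusted p = 0.0290, edgeR). The 4 subunits of the clamp loader (Rfc2, Rfc3, Rfc4 and Rfc5) had smaller estimates, from -0.75 for Rfc5 to -0.39 for Rfc4, and none passed the test, although the groups of all 4 were apart.

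The 6 genes of polymerases and primase included 2 called lower at E0.5, each the catalytic subunit of its enzyme. Pole (chromosome 5, 110286306 to 110337474, plus strand), of the leading-strand polymerase epsilon, was at 0.295, 0.389 and 0.186 FPKM at E0.5 and at 2.78, 1.53 and 1.63 FPKM at E4.5. Pola1, of polymerase alpha that starts each new strand, was at 0.808, 0.823 and 0.827 FPKM at E0.5 and at 2.41, 1.98 and 2.4 FPKM at E4.5. The E0.5 libraries were the lower ones without exception, and the log2(FC) values were -2.77 (standard error 0.40, adjusted p = 0.0354, edgeR) for Pole and -1.46 (standard error 0.18, adjusted p = 0.0259) for Pola1.

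The partners of these subunits had smaller estimates. Pola2, the accessory subunit of polymerase alpha, had a log2(FC) of -0.59 and overlapping groups. Pole2, the accessory subunit of polymerase epsilon, was at 1.79, 1.46 and 1.97 FPKM at E0.5 and at 3.17, 2.94 and 2.99 FPKM at E4.5, a log2(FC) of -0.79 (adjusted p = 0.0974), in a row that merges it with Rpl36al, a ribosomal protein gene, and with Dnaaf2. Pold1, the catalytic subunit of the lagging-strand polymerase delta, was at 2.09, 2.03 and 1.84 FPKM at E0.5 and at 3.87, 2.27 and 4.27 FPKM at E4.5, where replicate 2 lay near the E0.5 values, and had a log2(FC) of -0.80 (adjusted p = 0.213). Prim1, the catalytic subunit of primase, was at 0.839, 0.75 and 1.27 FPKM at E0.5 and at 2.67, 2.17 and 2.22 FPKM at E4.5. The groups of Prim1 did not overlap, and its log2(FC) was -1.29 (adjusted p = 0.0848, or 0.0464 without E4.5 replicate 3).

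On the lagging strand, Rpa2 covers single-stranded DNA, Fen1 removes the flaps that carry primer ends, and Lig1 seals the nicks. Fen1 was at 2.07, 1.34 and 1.01 FPKM at E0.5 and at 6.59, 6.87 and 4.32 FPKM at E4.5. Its groups were apart, with a log2(FC) of -2.01 ± 0.35 (SE, adjusted p = 0.0535, edgeR), and -2.21 with an adjusted p of 0.0106 without E4.5 replicate 3. Rpa2 and Lig1 had log2(FC) values of -1.30 (adjusted p = 0.0824) and -1.25 (adjusted p = 0.0742), and all 3 genes met the criterion of the study.

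Nucleotide supply held the largest difference. Rrm2 (chromosome 12, 24708241 to 24714146, plus strand) encodes the small subunit of ribonucleotide reductase, the enzyme that makes deoxynucleotides, and its level sets much of the activity in dividing cells. It was at 0.967, 0.633 and 0.575 FPKM at E0.5 and at 27.5, 18.8 and 4.42 FPKM at E4.5. All E4.5 values were above the E0.5 values, and replicate 3 was by far the lowest of them. The log2(FC) was -4.56 ± 0.72 (SE, adjusted p = 0.0439, edgeR), and -5.02 (standard error 0.31, adjusted p = 0.00111) without E4.5 replicate 3. Rrm1, the large subunit, was at 1.99, 2.09 and 2.17 FPKM at E0.5 and at 5.08, 3.56 and 4.62 FPKM at E4.5, a log2(FC) of -1.08 ± 0.20 (SE, adjusted p = 0.0602).

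The level of Rrm2 per level of Rrm1 was 0.487, 0.302 and 0.265 at E0.5 and 5.41, 5.28 and 0.957 at E4.5. The groups did not overlap, but E4.5 replicate 3 lay closer to the E0.5 libraries than to the other E4.5 libraries (exact permutation p = 0.1). Tyms, thymidylate synthase, and Tk1, thymidine kinase, had log2(FC) values of -1.14 (adjusted p = 0.0854) and -1.73 (adjusted p = 0.253). The values of Tk1 at E0.5 spread widely, at 0.157, 0.952 and 1.12 FPKM.

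Behind the fork, Chaf1a (chromosome 17, 56040439 to 56072289, plus strand), the large subunit of the histone chaperone CAF-1, was at 0.546, 0.514 and 0.480 FPKM at E0.5 and at 1.5, 1.38 and 1.81 FPKM at E4.5. Uhrf1 (same chromosome, 56303321 to 56323486), which brings the maintenance DNA methyltransferase to new DNA, was at 1.01, 0.448 and 0.671 FPKM at E0.5 and at 4.73, 3.03 and 6.13 FPKM at E4.5. Both genes were lower in every E0.5 library, and both were called. Their log2(FC) values were -1.59 (standard error 0.20, adjusted p = 0.0259, edgeR) and -2.69 (standard error 0.39, adjusted p = 0.0367). Chaf1b, the middle subunit of CAF-1, overlapped between the days with a log2(FC) of -0.25 (adjusted p = 0.729). The level of Chaf1a per level of Chaf1b was 0.543, 0.690 and 0.554 at E0.5 and 1.09, 1.47 and 2.34 at E4.5 (exact permutation p = 0.1).

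Of the G1/S regulators, Ccne2, a cyclin that activates Cdk2, was called lower at E0.5. It was at 0.816, 1.15 and 1.10 FPKM at E0.5 and at 3.42, 3.23 and 3.05 FPKM at E4.5, clearly apart, with a log2(FC) of -1.64 ± 0.23 (SE, adjusted p = 0.0351, edgeR). Ccne1, the other cyclin E, was at 0.306, 0.0578 and 0.129 FPKM at E0.5 and at 1.84, 1.36 and 0.465 FPKM at E4.5. The estimate for Ccne1 was larger, -2.89, but so was its standard error of 0.75 (adjusted p = 0.126, or 0.0265 without E4.5 replicate 3), and it rested on as few as 13 counts in a library. E2f1, the transcription factor of the G1/S programme, was at 0.472, 0.646 and 0.410 FPKM at E0.5 and at 1.92, 0.804 and 1.91 FPKM at E4.5. Its groups were apart, and its log2(FC) was -1.59 ± 0.43 (SE, adjusted p = 0.132).

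**Figure D3:**
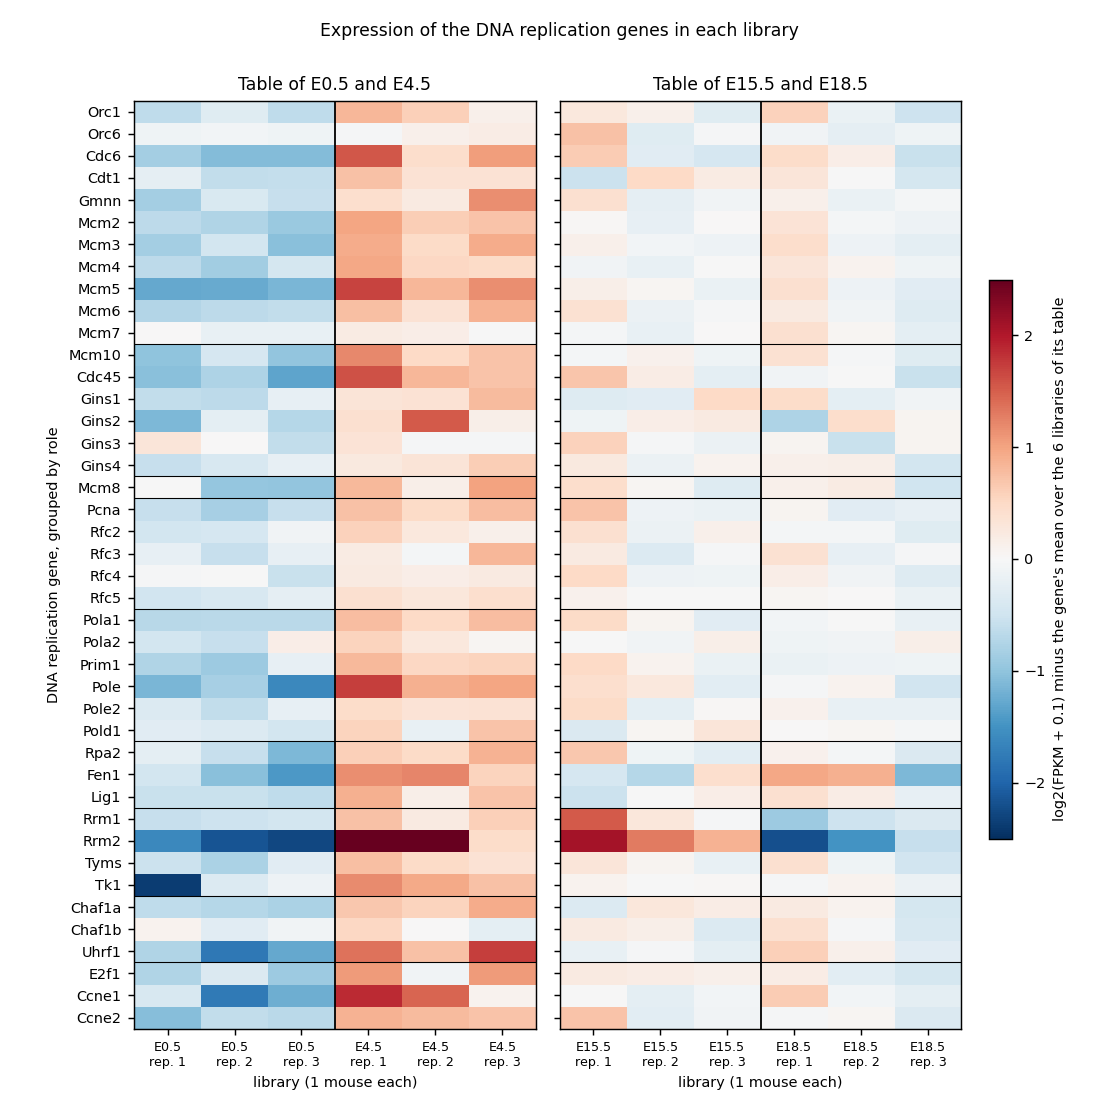
Each cell is log2(FPKM + 0.1) of a gene (y axis, in role groups) in a library (x axis) minus that gene's mean over the 6 libraries of its table, from blue (lower) to red (higher), with the colour scale ending at -2.5 and 2.5. The E0.5 libraries are mostly blue and the E4.5 libraries mostly red, whereas E15.5 and E18.5 differ visibly at Rrm1 and Rrm2 and otherwise vary between single libraries.

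The libraries of a day also differed among themselves. The summed FPKM of the 42 genes was 65.3, 61.4 and 63.2 at E0.5 and 185.5, 145.3 and 149.1 at E4.5. Replicate 1 was the highest E4.5 library for 26 of the 42 genes, where it was the highest for 23.8% of all rows. Replicate 2 was the lowest for 25 of the 42, where it was the lowest for 25.5% of all rows. E4.5 replicate 3, the library with ovary markers, was the highest for 14 and the lowest for 14. Over all rows replicate 3 was the highest for 40.2% and the lowest for 34.6%. The summed FPKM of 4 lists of cell type markers was also apart between the days. Endothelium markers were lower at E0.5, all 4 of them (16.9 to 19.5 against 26.5 to 47.8). Sums were higher at E0.5 for epithelium, with all 5 markers higher (215 to 255 against 72.2 to 150), for stroma, with 3 of 5 higher (255 to 405 against 122 to 236), and for leukocytes, with 2 of 4 tested markers higher (21.6 to 24.5 against 15.1 to 18.0). Decidua sums overlapped, but Bmp2 was lower at E0.5 (log2(FC) of -3.44, adjusted p = 0.0187, edgeR) and Alpl higher (3.35, adjusted p = 0.00631). Their part in the result was not tested.

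In per-length levels, Mcm7 (7.35 ± 0.606 FPKM) and Pcna (6.98 ± 0.705 FPKM; mean ± SD, n = 3) were the most abundant of the 42 at E0.5, within each other's spread, and Mcm6 followed at 3.75 ± 0.165 FPKM. At E4.5 Pcna (17.7 ± 1.97 FPKM) and Rrm2 (16.9 ± 11.7 FPKM) had the highest means, also within each other's spread, before Mcm6 (9.69 ± 1.71 FPKM). The spread of Rrm2 also took in Mcm6. In E4.5 replicate 3, Rrm2 (4.42 FPKM) lay below Mcm6 (11.1 FPKM). The lowest levels at E4.5 were those of Mcm10 (0.810 ± 0.233 FPKM) and Cdc6 (0.767 ± 0.319 FPKM).

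Another 40 genes of replication that are not among the 42 were examined beside them. Of these, 7 were called lower at E0.5 and none higher at an adjusted p under 0.05 in edgeR's test. Of all tested rows 0.459% were called lower, and of those with an Ensembl transcript 0.814%. An estimate below 0 was found for 36 of the 40 (50.4% of all rows, 58.5% of those with an Ensembl transcript). The median log2(FC) was -0.81. The count of 7 was 13 without E4.5 replicate 3 and 0 without any 1 of the other 5 libraries. Clspn, which carries the checkpoint signal at the fork, had the largest change among the 7, with 0.0709, 0.101 and 0.108 FPKM at E0.5 against 1.08, 0.60 and 0.680 FPKM at E4.5 (log2(FC) = -3.07, adjusted p = 0.0259). Dut, which removes dUTP, followed with -2.98, and the 7 also included Wdhd1 (-2.37), Chtf18 (-2.25), Ticrr (-2.18) and Timeless (-1.5). Dnmt1, the maintenance DNA methyltransferase, had a log2(FC) of -1.31 (adjusted p = 0.0638).

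Among 24 cell cycle genes, 4 were called lower at E0.5 and none higher in the same test, namely Cdk1 (-2.46), Top2a (-3.0), Ccna2 (-2.63) and E2f7 (-1.86). Called lower were 0.459% of all tested rows and 0.814% of those with an Ensembl transcript. Of the 24, 16 had an estimate below 0, as 50.4% of all rows and 58.5% of those with an Ensembl transcript did. By the criterion of the study 6 were lower at E0.5 and 3 higher (Cdk6, Cdkn1a and Cdkn1c). Among all rows, 5.82% and 6.37% met it on these sides. The count of 4 was 0 without any 1 of the 3 E0.5 libraries, 1 (Top2a) without E4.5 replicate 1 and 2 (Cdk1 and Top2a) without E4.5 replicate 2, and without E4.5 replicate 3 it was 7 lower and 1 higher (Cdkn1c), where 6.08% of all rows were called. With DESeq2 it was 8 lower and 2 higher (Cdkn1a and Cdkn1c), where 9.74% were called. The products of the first 3 act in S phase, G2 and mitosis, and E2f7 represses E2F targets. Top2a, which untangles DNA, was at 1.13, 1.06 and 1.29 FPKM at E0.5 and at 12.7, 7.87 and 7.28 FPKM at E4.5. Mki67, a marker of cycling cells, had a log2(FC) of -2.00 (adjusted p = 0.0604, edgeR). Cdkn1c, an inhibitor of cyclin-dependent kinases, had higher values at E0.5, at 4.45, 3.12 and 5.13 FPKM against 1.34, 1.84 and 0.983 FPKM, with no overlap and a log2(FC) of 1.61 (adjusted p = 0.0743). Cdkn1a, a related inhibitor, had a log2(FC) of 1.28 (adjusted p = 0.0771). Of the other inhibitors, Cdkn1b was at 0.39 with overlapping groups and Cdkn2c at -0.84 without overlap (adjusted p = 0.376 and 0.233). The D-type cyclin genes Ccnd1, Ccnd2 and Ccnd3 had log2(FC) values of -1.21, -1.78 and 0.03 (adjusted p = 0.294, 0.296 and 0.951), and all 3 overlapped between the days. Without E4.5 replicate 3, Ccnd1 was among those called, with a log2(FC) of -1.60 (adjusted p = 0.0234, edgeR). Ccnd2 was at 14.2 FPKM in that library, against 2.03 and 2.88 FPKM in E4.5 replicates 1 and 2. At E0.5 Ccnd2 was at 2.69, 1.06 and 1.66 FPKM.

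Between E18.5 and E15.5, 0 of the 42 genes passed the adjusted p in limma's test, where 0.0259% of all 30928 tested rows were called. At an unadjusted p under 0.05 there were 2 of the 42, Rrm2 and Rrm1, which also met the criterion of the study, both lower at E18.5, where 5.51% of all rows had such a p on the lower side, 6.05% met the criterion and 2.93% met it on the lower side. The median log2(FC) of the 42 was -0.09, with 29 estimates below 0, against 0.02 over all tested rows, of which 47.7% were below 0. The groups overlapped for all genes but these 2, where 8.96% of all rows had every E18.5 library below every E15.5 library.

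Rrm2 was at 131, 76.3 and 56.4 FPKM at E15.5 and at 6.70, 10.9 and 20.8 FPKM at E18.5. The lowest E15.5 library was well above the highest E18.5 library, although values varied several-fold within E18.5. The log2(FC) was -2.83 ± 0.46 (SE, unadjusted p = 0.000504, adjusted p = 0.112, limma), and it lay between -3.26 and -2.45 in the 6 fits with 1 library left out. Rrm2 made up 44.2%, 40.3% and 32.6% of the summed FPKM of the 42 genes at E15.5 and 4.87%, 8.81% and 17.3% at E18.5 (exact permutation p = 0.1).

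Rrm1 was at 26.2, 10.9 and 8.85 FPKM at E15.5 and at 4.76, 6.27 and 6.93 FPKM at E18.5. E15.5 replicate 1 was far above the other E15.5 libraries. The log2(FC) was -1.19 ± 0.40 (SE, unadjusted p = 0.0206, adjusted p = 0.309, limma), and it was -0.72 without E15.5 replicate 1, so that the criterion of the study was no longer met. Without E18.5 replicate 1 it was -1.04 with an unadjusted p of 0.0702.

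Samhd1, which breaks down deoxynucleotides and is not among the 42, also had lower values at E18.5. It was at 48.8, 53.5 and 38.1 FPKM at E15.5 and at 9.58, 12 and 19.5 FPKM at E18.5, with no overlap and a log2(FC) of -1.81 ± 0.27 (SE, adjusted p = 0.101, limma). The level of Rrm2 per level of Rrm1 was 5.01, 7.01 and 6.38 at E15.5 and 1.41, 1.75 and 3.00 at E18.5, and that of Rrm2 per Pcna was 4.5, 4.69 and 3.53 at E15.5 and 0.357, 0.745 and 1.34 at E18.5 (exact permutation p = 0.1 for each).

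The summed FPKM of 5 marker lists was also apart between E15.5 and E18.5. Endothelium markers summed to 143, 167 and 136 FPKM at E15.5 and to 66.1, 78.1 and 94.5 FPKM at E18.5, mostly from Cdh5, with all 4 lower at E18.5. Decidua markers summed to 1360, 85.4 and 100 FPKM at E15.5 and to 53.2, 59.2 and 70.6 FPKM at E18.5, mostly from Prl8a2. Of these markers 3 were lower and 3 higher, and 1 met the criterion of the study in each direction. Those of embryonic red cells summed to 0.957, 63.9 and 5.67 FPKM at E15.5 and to at most 0.130 FPKM at E18.5. The sums of these 3 lists were lower at E18.5, and those of 2 lists were higher. Epithelium markers summed to 197, 295 and 411 FPKM at E15.5 and to 819, 597 and 593 FPKM at E18.5, with all 5 higher and 3 past the criterion of the study, and trophoblast markers summed to 34.0, 4.79 and 3.84 FPKM at E15.5 and to 57.0, 74.5 and 43.6 FPKM at E18.5, on that day mostly from Tpbpa, with 3 of 5 higher and Prl3b1 (-0.36) and Psg17 (-0.10) on the other side. Erythroid sums overlapped (166 to 324 against 89.4 to 221), although all 4 tested markers were lower at E18.5 and 2 met the criterion of the study. Leukocyte sums also overlapped (57.9 to 67.6 against 53.7 to 60.6). There Ptprc (-0.98) and Ncr1 (-1.86) had lower estimates at E18.5, Cd68 was at -0.15 and Csf1r at 0.24 on the log2 scale. The part of these cells in the levels of Rrm1, Rrm2 and Samhd1 was not tested.

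**Figure D4:**
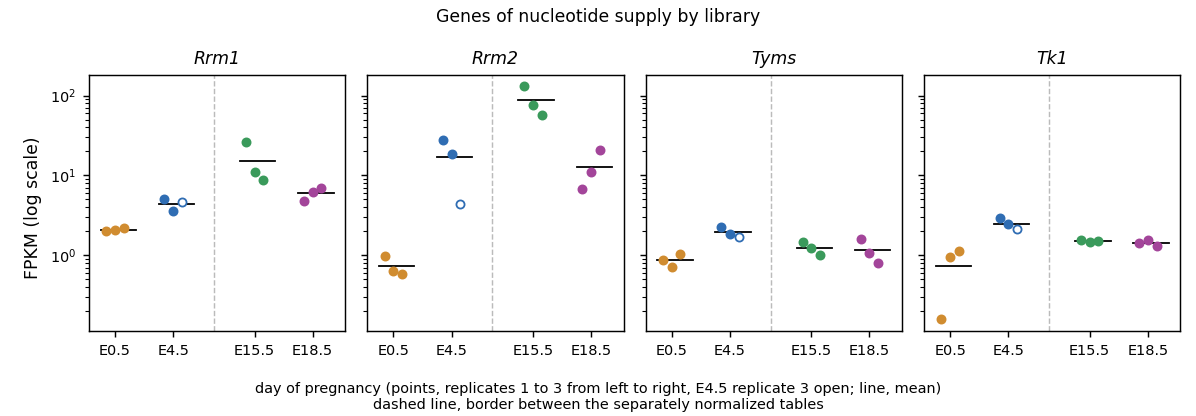
FPKM (y axis, log scale) of the 4 genes of nucleotide supply in every library, by day of pregnancy (x axis), with lines for means of 3 mice and E4.5 replicate 3 drawn open. Rrm2 reaches 56.4 to 131 at E15.5 and 6.70 to 20.8 at E18.5, while Tyms and Tk1 overlap between these days.

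The other 40 genes lay between -0.43 and 0.48 on the log2 scale. Tyms and Tk1, the other genes of nucleotide supply, had log2(FC) values of -0.12 and -0.06. Of the licensing genes, Orc6 had the largest estimate, at 5.46, 2.60 and 3.17 FPKM at E15.5 and 3.05, 2.75 and 2.99 FPKM at E18.5 (log2(FC) = -0.28, adjusted p = 0.708, limma), and E15.5 replicate 1 alone stood above the rest. Mcm6, their most abundant gene, was at 10.3, 7.07 and 7.71 FPKM at E15.5 and at 9.19, 7.38 and 6.28 FPKM at E18.5. The 6 helicase subunits ranged from -0.13 for Mcm6 to 0.18 for Mcm4, and Mcm5 was at -0.02 (standard error 0.21). Of their shares in the summed FPKM of Mcm2 to Mcm7, only that of Mcm6 did not overlap between these days. It was 35.2%, 29.1% and 29.8% at E15.5 and 27.3%, 28.4% and 27.7% at E18.5 (exact permutation p = 0.1).

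Cdc45 had the lowest estimate of these 40, at 2.78, 1.93 and 1.39 FPKM at E15.5 and 1.58, 1.66 and 1.11 FPKM at E18.5 (log2(FC) = -0.43, adjusted p = 0.591, limma). Its groups overlapped, as did those of Gins4, the most abundant gene of firing, at 9.46, 7.27 and 8.54 FPKM at E15.5 and 8.75, 8.92 and 5.81 FPKM at E18.5. Fen1 had the highest estimate, at 1.46, 1.18 and 2.71 FPKM at E15.5 and 4.01, 3.76 and 0.857 FPKM at E18.5. With E18.5 replicate 3 as its lowest library of all, Fen1 had a log2(FC) of 0.48 ± 0.60 (SE, adjusted p = 0.775), which was 1.16 with an unadjusted p of 0.0188 without that library.

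Pcna was at 29.2, 16.3 and 16.0 FPKM at E15.5 and at 18.76, 14.68 and 15.48 FPKM at E18.5, a log2(FC) of -0.28 (adjusted p = 0.686, limma). Only E15.5 replicate 1 was apart from the other 5 libraries. The 4 clamp loader subunits ranged from -0.27 for Rfc2 to 0.10 for Rfc3.

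Among polymerases and primase the log2(FC) values ranged from -0.28 (Pole and Prim1) to 0.00 (Pold1). Prim1 was at 2.05, 1.51 and 1.26 FPKM at E15.5 and at 1.25, 1.29 and 1.31 FPKM at E18.5, and Pole at 1.5, 1.34 and 0.90 FPKM at E15.5 and 1.07, 1.18 and 0.758 FPKM at E18.5. For both, E15.5 replicate 1 was the highest library. The merged row of Pole2 had the highest level of this group, at 12.6, 7.60 and 9.25 FPKM at E15.5 and 9.70, 7.96 and 7.95 FPKM at E18.5, and also overlapped (log2(FC) of -0.17).

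Uhrf1 was at 2.15, 2.42 and 2.07 FPKM at E15.5 and at 3.78, 2.70 and 2.02 FPKM at E18.5, where replicate 1 was the highest and replicate 3 the lowest of all 6 (log2(FC) of 0.30). Ccne2, the most abundant of the G1/S genes, was at 3.47, 1.73 and 1.95 FPKM at E15.5 and at 2.03, 2.15 and 1.59 FPKM at E18.5. E2f1 had the largest estimate of that group, -0.34, at 1.01, 0.980 and 0.936 FPKM at E15.5 and 0.985, 0.698 and 0.601 FPKM at E18.5, where replicate 1 alone lay within the E15.5 range. In the same test Chaf1a was at -0.09, Chaf1b at -0.01, Mcm8 at -0.11, Ccne1 at 0.21 and Ccne2 at -0.24 on the log2 scale, and the adjusted p-values of these genes were at least 0.602.

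As at E4.5, single libraries led. E15.5 replicate 1, the library with the high decidua markers, was the highest of its day for 30 of the 42 genes (for 40.8% of all rows), E18.5 replicate 1 was the highest for 28 (41.2%), and E18.5 replicate 3 was the lowest for 31 (40.2%). Leaving out E15.5 replicate 1 or E18.5 replicate 3 turned the median log2(FC) from -0.09 to 0.02, and without E18.5 replicate 1 it was -0.22. The part of the decidua in these levels was not tested.

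None of the 40 other replication genes passed the adjusted p in limma's test between E18.5 and E15.5, where 1 (Samhd1) met the criterion of the study, as 6.05% of all rows did, and at an unadjusted p under 0.05, which 12.2% of all rows had, there was also 1. Of the 24 cell cycle genes 0 passed the adjusted p, and 3 had an unadjusted p under 0.05 (12.2% of all rows did), with Rbl2 lower at E18.5 (-0.47) and Cdkn1a and Cdkn1c higher. Cdkn1c was at 3.30, 2.83 and 6.58 FPKM at E15.5 and at 16.2, 15.7 and 9.56 FPKM at E18.5, a log2(FC) of 1.74 (adjusted p = 0.153) without overlap. Cdkn1a was at 5.65, 5.73 and 6.11 FPKM at E15.5 and at 8.41, 9.05 and 9.64 FPKM at E18.5, also apart, with a log2(FC) of 0.62 (adjusted p = 0.141). Mki67 (-0.39), Top2a (-0.43), Dnmt1 (0.14) and Ccnd3 (0.58) had adjusted p-values of at least 0.581.

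The day effect of E0.5 over E4.5 was then compared with that of E18.5 over E15.5 in limma on log2(FPKM + 0.1), as the difference of both log2 fold changes over the 12 libraries. For 7 of the 42 genes this difference passed an adjusted p under 0.05, all 7 more negative at the implantation stage, where 2.70% of 21393 paired rows were called and 1.39% were called on that side. The 7 were 5 subunits of the helicase ring (Mcm2 to Mcm6), Uhrf1 and Pole. The largest differences among them were those of Uhrf1 (-2.85, standard error 0.45, adjusted p = 0.0104) and Mcm5 (-2.44, standard error 0.34, adjusted p = 0.00622). At an unadjusted p under 0.05 there were 29 genes, where 11.2% of paired rows were that low on this side, and 39 of the 42 differences were below 0.

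Rrm2 did not pass this test, with log2(FC) values of -4.04 and -2.83 at the implantation and the labor stage on this scale (difference -1.21, standard error 0.87, adjusted p = 0.505, limma). Rrm1 was at -1.04 and -1.19 (difference 0.15, standard error 0.47, adjusted p = 0.897), and Mcm7 at -0.24 and 0.15 (difference -0.39, standard error 0.24, adjusted p = 0.427). The count of 7 was 9 without E4.5 replicate 3 and ranged from 4 to 11 with each of the 12 libraries left out in turn, being 4 without any of 7 libraries (E0.5 replicate 1 or 3, E4.5 replicate 1, E15.5 replicate 2 or 3, and E18.5 replicate 1 or 2) and 11 without E15.5 replicate 1.

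**Figure D5:**
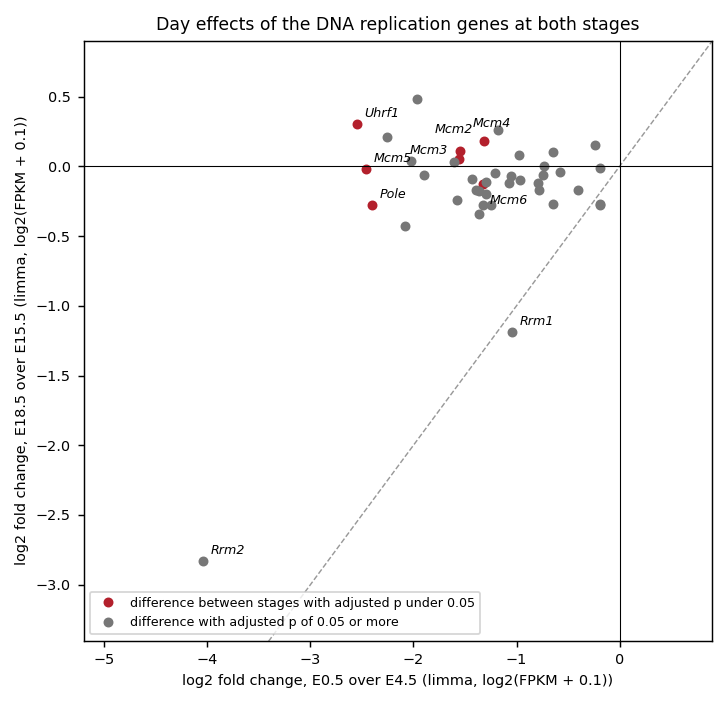
Log2 fold changes of the 42 genes for E0.5 over E4.5 (x axis) and for E18.5 over E15.5 (y axis), both from limma on log2(FPKM + 0.1), with red points for genes whose difference between the stages has an adjusted p under 0.05 and a dashed line where both would be equal. The 7 red points lie between -2.55 and -1.32 on the x axis and between -0.28 and 0.30 on the y axis, and Rrm2 (-4.04 and -2.83) and Rrm1 (-1.04 and -1.19) are low on both.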

How the data were processed

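RNA-seq was carried out on 12 whole uteri of ICR mice, 3 on each of 4 days. The submitters' processing notes name Bowtie 0.12.2, HISAT2 2.0 and StringTie 1.3.0 with the builds mm8 and mm10, whereas the methods of the study name Bowtie2, Tophat2, StringTie and Ballgown. FPKM values (fragments scaled to transcript length and library size) were computed by the authors for each gene row, separately for E0.5 with E4.5 and for E15.5 with E18.5. Raw counts were deposited for E0.5 and E4.5 only, and how reads were assigned to rows, and whether strand was used, is not given in the sources used here. Labels describe poly(A) selection and the methods describe removal of ribosomal RNA, and which was applied was not tested. Row coordinates match GRCm38.

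A gene was taken as the row that carries its name and an Ensembl transcript. The value 0.0001 FPKM in the first table stands for 0 and was set to 0. Rows entered the tests at 0.1 FPKM or more on average. Counts were compared by the quasi-likelihood F-test of edgeR 4.0.16 after TMM scaling, and the FPKM of E15.5 and E18.5 with limma 3.58.1 (trend) on log2(FPKM + 0.1), which shrinks the change of low genes. The difference between the stages was tested with limma over the 12 libraries. The Benjamini-Hochberg adjustment ran over every tested row of a comparison. Both fits were tested on simulated data before use. The tables were normalized separately, so levels were not tested across them. The alternatives were DESeq2 1.42.0, limma on FPKM for E0.5 and E4.5, other pseudocounts (0.01 and 1), filters and scalings, leaving out each library, and a block for the replicate number.

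The genes, their role groups and the other lists were chosen with earlier results of these data known. Values in every library are given for genes past the adjusted p, and for the most abundant and the most changed gene of each role group. Same-numbered libraries did not deviate together (correlations of -0.07 to 0.02), so the replicate numbers were not taken as pairs. No column of values per library was left out. The values of 1 gene of the other lists are not reported here.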

Additional observations from a re-analysis of the deposited data

Results flagged for a closer look

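For 7 of the 42 genes, the effect of the day differed between the implantation stage (E0.5 over E4.5) and the labor stage (E18.5 over E15.5) by a test of the difference itself in limma. The difference of the log2 fold changes was -2.44 for Mcm5, -1.66 for Mcm2, -2.85 for Uhrf1, -1.50 for Mcm4, -1.61 for Mcm3, -2.12 for Pole and -1.20 for Mcm6. Beside these, the difference was -1.17 for Pola1, -1.43 for Lig1 and -1.35 for Chaf1a, with adjusted p-values of 0.0541, 0.0548 and 0.0607. The stages come from separately assembled and normalized tables, each with its own pair of days, and the part of this processing in the differences was not tested.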

How the results depend on the processing

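Between E0.5 and E4.5, the 13 genes called in edgeR's test became 31 with DESeq2 (9.74% of all rows), all 13 included, and 10 and 9 in limma with a pseudocount of 0.1 and of 1, of which 8 and 7 were among the 13. The count of 7 among the 40 other replication genes became 18 with DESeq2. It was 1 in limma with a pseudocount of 0.1 or of 1, and 3 with a mean of at least 1 FPKM. By the criterion of the study, 29 genes became 13 in limma with a pseudocount of 1, and the median log2 fold change of -1.34 became -0.72 there and -1.26 with upper quartile factors. With 1 library left out, the counts ranged from 0 to 23 for the 42 genes and from 0 to 13 for the other list, the count by the criterion from 25 to 30, and the median from -1.44 to -1.28. Between E18.5 and E15.5 the called counts remained 0 in all alternatives, and with 1 library left out the criterion gave 1 to 3 genes and a median of -0.22 to 0.02. The count of genes whose day effect differs between the stages ranged from 4 to 11 with 1 library left out. For the 13 called genes, 168 values were computed under an alternative, of which 88 lost the call, 80 kept it and 0 changed sign. Values of named genes not called passed the threshold 14 times, all between E0.5 and E4.5. Uncalled estimates near 0 between E18.5 and E15.5 did change sign in some settings, such as Orc6 (-0.28, and 0.03 without E15.5 replicate 1) and Cdc6 (0.04, and -0.17 without E18.5 replicate 1). The settings that leave out a library or raise the filter test fewer samples or rows, and otherwise the cause was not tested. With 3 mice a day, the exact permutation p of 1 gene cannot go below 0.1, and genes near 0.1 FPKM such as Cdc6 rest on few counts.

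With the replicate number as a block, 0 of the 42 genes, 0 of the 40 other genes and 0 of the 24 cell cycle genes were called between E0.5 and E4.5 (0% of all rows), 28 met the criterion of the study, and the difference between the stages was called for 2 genes. The labels do not describe the numbers as pairs and same-numbered libraries did not deviate together.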

Other observations

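The first table also holds 13 rows that carry the name of 8 of these genes without an Ensembl transcript, such as assembled fragments named for Mcm10, Pole2 and Rfc5. Of these rows 12 had an estimate below 0 between E0.5 and E4.5 and 0 passed the adjusted p in edgeR's test. A row named for Mcm10 was at 0, 0.110 and 0 FPKM at E0.5 and at 1.31, 1.73 and 0.594 FPKM at E4.5 (log2 fold change -4.92, unadjusted p = 0.0152, adjusted p = 0.175). The second table holds 1 such row, named for Prim1, with overlapping groups. These rows were not added to the values of the genes.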
